A study of Mus musculus with 24 samples.

Results

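Solute carriers are the membrane proteins, numbered in families that begin with Slc, that move small molecules and ions across the plasma membrane and the membranes of organelles. The genes described here are the solute carriers measured in mouse colon on the Affymetrix 430A array, apart from 12 set aside by name (Slc26a2, Slc26a3, Slc9a2, Slc9a3, Slc20a1, Slc4a4, Slc12a2, Slc11a2, Slc40a1, Slc39a4, Slc7a11 and Slc25a20), of which 10 had a probe set of a single gene. A probe set, the group of short probes that gives 1 value per transcript, was taken when it was annotated to a single gene whose symbol is Slc followed by a number and its signal averaged above 180 over the 12 arrays. That left 242 probe sets of 163 genes, of 419 Slc probe sets and 262 Slc genes on the array. Another 89 Slc genes had every probe set at or under that level. The members were thus chosen by their mean signal, which is given as a description only. Just inside the limit lay Slc9a3r2 (184) and Slc2a3 (184), and just outside it Slc22a21 (179) and Slc5a9 (178). The rule reads symbols, so it also took Slc9a3r1, Slc9a3r2 and Slc4a1ap, which are not transporters but proteins named for binding one.

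BALB/c mice of 6 to 8 weeks ate a diet with 2% curcumin, a polyphenol of turmeric, or a standard diet, from 2 days before an enema on day 0, and were killed on day 7. The enema held TNBS, a hapten that provokes colitis, or was the control enema, whose contents the labels do not give. The 4 groups were curcumin diet with TNBS, standard diet with TNBS, curcumin diet with control enema and standard diet with control enema, with 3 samples each. RNA of the whole colon, with all its layers and cell types, came from pools of 3 mice. Whether the 3 samples in each group stem from different pools is not given by the labels, so p-values measure the spread between these samples, which may be technical.

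In the colon, solute carriers take up the short-chain fatty acids made by bacteria, salvage peptides, vitamins and bile acids, and exchange ions at the surface of the epithelium. Many amino acid carriers work as pairs of a heavy chain, which brings the pair to the membrane, and a light chain, which does the transport. Most carriers of the Slc25 family sit in mitochondria, and many of the Slc35 family bring activated sugars into the Golgi and the endoplasmic reticulum for glycosylation, a step that mucus production draws on.

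Signals are the deposited values, on a linear scale with a trimmed mean near 500 on each array. A difference is given on the log2(signal + 16) scale, with its SE from the limma fit over all 12 arrays, and a positive one means higher in the group named first. A gene is represented by its member probe set with the highest mean signal unless a probe set is named. Levels of different probe sets are not compared, because probes differ in brightness.

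The colons differed in more than diet and enema. Summed over 9 neutrophil markers, the signal was 6548, 4412 and 8264 on the 3 arrays of standard-diet TNBS colons, against 1063, 1152 and 1065 with the control enema, and 845, 1323 and 1653 in curcumin-diet TNBS colons, against 1356, 1166 and 1066 with the control enema. The 10 macrophage markers had the same 3 arrays on top, at 12555, 10273 and 12036, against 8365, 7249 and 7953 in standard-diet control colons. The 11 pancreas acinar markers, a sign of pancreas taken with the colon, summed to 105735, 3377 and 22035 in curcumin-diet TNBS colons, 115168, 49617 and 130358 in standard-diet TNBS colons, 3232, 3321 and 62105 in curcumin-diet control colons and 3424, 135422 and 97573 in standard-diet control colons, so 4 arrays lay between 3232 and 3424 and all 3 standard-diet TNBS arrays were high. The 11 colonocyte markers were strong on every array, from 49647 to 79788. The 12 arrays also fell into 2 sets of 6 along the first principal component of all probe sets (31.95% of the variance). Each set held arrays of all 4 groups, but not evenly. No label names these sets, so they are called array sets 1 and 2, and a fit that adds them as a term is called the array set fit. Set 1 held standard-diet control array 1, standard-diet TNBS arrays 2 and 3, curcumin-diet control arrays 2 and 3 and curcumin-diet TNBS array 1. A difference between the sets thus enters the comparisons of single groups and the interaction when that term is left out, but not the averages. In such bulk tissue, fewer cells of a type and less RNA per cell cannot be told apart.

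**Figure D1:**
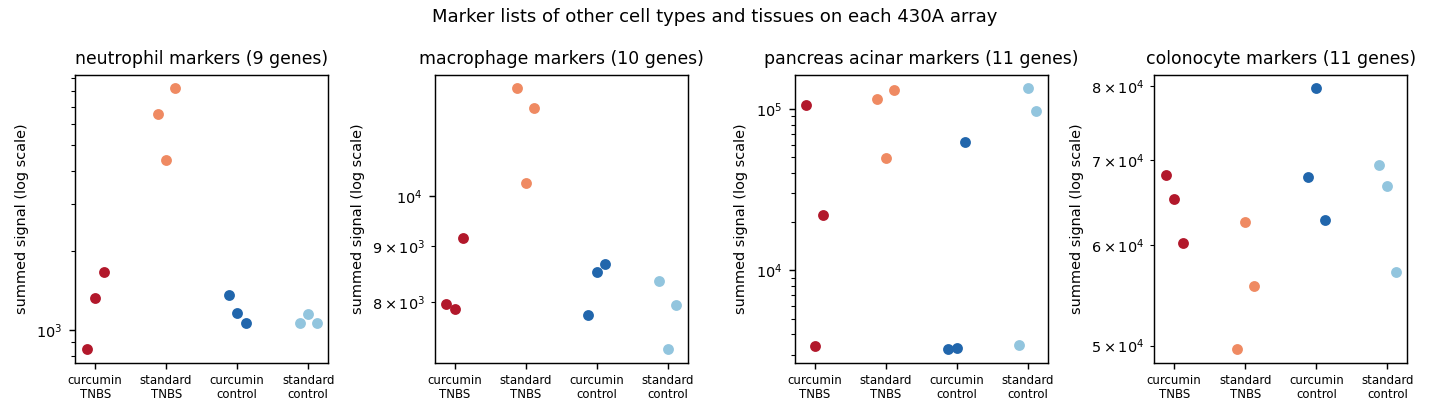
Summed signal of 4 marker lists on each 430A array (log axis), 3 points per group: curcumin-diet TNBS, standard-diet TNBS, curcumin-diet control and standard-diet control. The 3 standard-diet TNBS arrays have the highest neutrophil sums, 4412 to 8264, and the pancreas sums differ between arrays of the same group.

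No solute carrier passed the threshold in any comparison. Of the 242 probe sets, 239 had signals high enough to be tested among the 13575 of the array (left out were 1 each of Slc16a4, Slc8a1 and Slc9a3r2). At an adjusted p under 0.05 in limma, 0 of 239 were called for TNBS against control enema on the standard diet, where 0.00737% of all probe sets were called higher and 0.0% lower. The count was also 0 on the curcumin diet (background 0.0% in each direction), for curcumin against standard diet with the control enema (0.0%) and for the diets with TNBS, where 0.0147% of all probe sets were called higher and 0.0147% lower. For the difference between the 2 TNBS effects (the diet by enema interaction) and for the TNBS effect averaged over diets it was 0 against 0.0%, and for the diet effect averaged over enemas 0 against 0.00737% higher. The lowest adjusted p of a member was 0.17, for a probe set of Slc2a1 between the diets with TNBS. In the array set fit the count was 0 in all 7 comparisons too, against 0.00737% higher for the averaged diet effect, 0.0% for the interaction, the averaged TNBS effect, TNBS on the curcumin diet and the diets with the control enema, and a background of 0.25% higher and 0.214% lower for TNBS on the standard diet and 0.125% and 0.0958% for the diets with TNBS. A fit that weights the arrays by their quality called 1 probe set for TNBS on the standard diet (against 0.862% of all higher and 0.582% lower), 25 for the diets with TNBS (16 higher and 9 lower on curcumin, 6.69% and 3.77% of the members, against 6.56% and 5.41% of all probe sets) and 16 for the interaction (13 higher and 3 lower, 5.44% and 1.26% of the members, against 2.86% and 2.15% of all probe sets).

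Without adjustment, 19 member probe sets (7.95%) had p under 0.05 for TNBS on the standard diet, against 9.32% of all probe sets, and 7 (2.93%) on the curcumin diet, against 2.75%. For curcumin against standard diet the counts were 24 (10%, against 10.2%) with TNBS and 11 (4.6%, against 3.06%) with the control enema. For the interaction, the averaged TNBS effect and the averaged diet effect they were 22, 6 and 13, or 9.21%, 2.51% and 5.44%, against 9.92%, 2.93% and 3.81%. The 3 arrays of one group lay wholly above or below those of the other for 33 member probe sets with TNBS on the standard diet (13.8%, against 14.7% of all), 20 on the curcumin diet (8.37%, against 7.09%), 42 between the diets with TNBS (17.6%, against 16.2%) and 15 between the diets with the control enema (6.28%, against 6.84%). All these shares are near the background, so they are no result about solute carriers. Over the 162 member genes tested, the median difference was 0.0099 for TNBS on the standard diet and -0.028 on the curcumin diet, beside -0.016 and -0.012 over all 8348 genes. Between the diets it was 0.0029 with TNBS and 0.022 with the control enema, beside 0.0025 and 0.0033. The 2 TNBS comparisons and the 2 diet comparisons share groups with each other, so their values are set side by side without a measure of likeness.

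**Figure D2:**
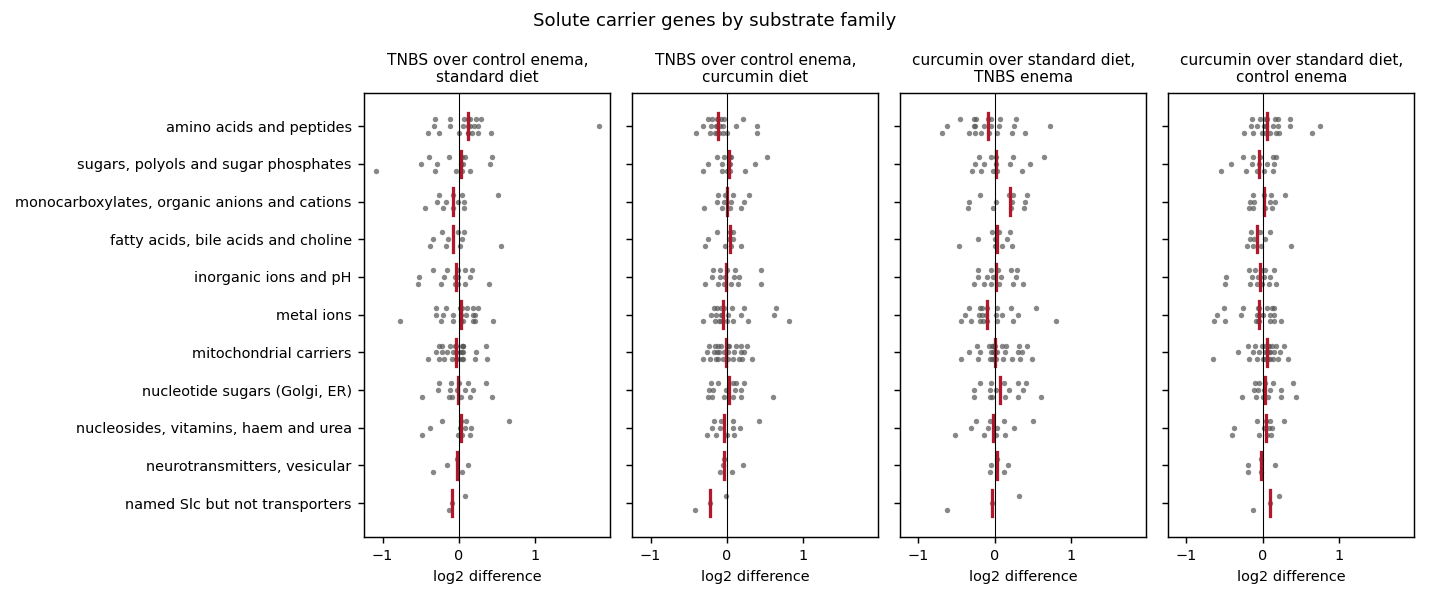
Log2 difference of each tested member gene (points, 1 probe set per gene) by substrate family, with the family median as a red line, in 4 panels: TNBS over control enema on either diet (standard, then curcumin), and curcumin over standard diet with TNBS and with the control enema. Family medians lie between -0.21 and 0.20, and the farthest point is Slc7a5 at 1.85.

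Amino acid and peptide carriers (23 genes). The 2 partners of the large neutral amino acid exchanger had more signal in standard-diet TNBS colons than in standard-diet control colons. Slc3a2, the heavy chain shared by several exchangers, read 1591, 1816 and 1498 on the 3 arrays of standard-diet TNBS colons, against 1165, 1265 and 1212 with the control enema. On the curcumin diet the order was the opposite, with 954, 1439 and 1199.7 in TNBS colons, against 1552, 1789 and 1383 in control colons, where 1 TNBS array overlapped the control arrays. The differences were 0.42 ± 0.16 on the standard diet and -0.40 ± 0.16 on the curcumin diet, and their difference was -0.82 ± 0.22 (95% interval -1.30 to -0.35, limma adjusted p = 0.27, and 0.13 in the array set fit). Slc7a5, the light chain that carries leucine and other large neutral amino acids, read 499.6, 606 and 556 in standard-diet TNBS colons, against 285, 113 and 85.4 in standard-diet control colons. In curcumin-diet colons it read 305, 351 and 357 with TNBS, against 64.2, 402 and 550.3 with the control enema, the widest spread of its 4 groups. Of these control arrays the one at 64.2 is in array set 2 and the others in set 1. Over all groups Slc7a5 averaged 451 in set 1 and 245 in set 2. Its difference on the standard diet, 1.85 ± 0.59, was the largest of any member gene in these 4 comparisons of groups, with an adjusted p of 0.3 in limma and 0.16 in the array set fit. Within array set 2 this difference was 2.18 and within set 1 0.99, each between 1 array of one group and 2 of the other. Between the 2 TNBS effects Slc7a5 had an interaction of -1.45 ± 0.83 (limma adjusted p = 0.59), the farthest from 0 of any member gene, and -0.78 in the array set fit. Other light chains of Slc3a2 differed less for TNBS on the standard diet, by 0.25 ± 0.16 for Slc7a6, 0.14 ± 0.15 for Slc7a7 and 0.13 ± 0.23 for Slc7a10.

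Slc3a1, the heavy chain of the exchanger for cystine and basic amino acids, separated the diets. It read 781, 1036 and 995 in curcumin-diet TNBS colons, against 611, 664 and 421 in standard-diet TNBS colons. With the control enema it read 1145, 1038 and 742 on curcumin, against 541, 566 and 721 on the standard diet. All 6 curcumin arrays thus lay above all 6 standard arrays, as they did for 0.0958% of all probe sets, and this was the only member probe set with that order. The averaged diet difference was 0.69 ± 0.15 (95% interval 0.37 to 1.01), with a limma adjusted p of 0.61 and 0.18 in the array set fit, and it was 0.58 with the pancreas marker level as a term. Pancreas marker sums were higher on 5 of the 6 standard arrays than on 4 of the 6 curcumin arrays, and their part in this difference was not tested beyond that term. Of the 11 colonocyte markers, 11 were also above 0 for the averaged diet effect (median 0.13), and their part in the Slc3a1 values was not tested. Slc7a9, the light chain that pairs with Slc3a1, differed by 0.20 ± 0.23 between the diets with the control enema and by -0.048 ± 0.23 with TNBS.

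Slc6a14, a sodium- and chloride-driven carrier of neutral and basic amino acids, read 3317, 4257 and 3556 in standard-diet TNBS colons, against 5100.4, 4719.9 and 4841 in standard-diet control colons, a difference of -0.40 ± 0.16. The curcumin-diet TNBS colons, at 5226, 5036 and 4424, lay wholly above the standard-diet TNBS colons, by 0.40 ± 0.16. Slc38a3, a glutamine carrier, read 197, 243 and 264 in curcumin-diet TNBS colons, against 323, 398 and 390.2 in standard-diet TNBS colons, a difference of -0.63 ± 0.25. Glutamine carriers Slc1a5 and Slc38a2 differed by -0.11 ± 0.13 and -0.32 ± 0.18 for TNBS on the standard diet. The creatine carrier Slc6a8 differed by 0.12 ± 0.21, the taurine carrier Slc6a6 by 0.30 ± 0.17 and the peptide carrier Slc15a1 by -0.33 ± 0.21. Slc6a6 had an interaction of -0.61 ± 0.23 by its leading probe set, but its other probe set had an interaction above 0. The leading probe set of Slc38a10 was above its control on the curcumin diet by 0.40 ± 0.17, but another of its probe sets was below. Between the diets with TNBS, probe sets of Slc38a10 lay wholly apart in both directions. Over the 23 genes, 17 differences were above 0 and 6 below for TNBS on the standard diet (median 0.12), and 5 were above and 18 below on the curcumin diet (median -0.12). Of all 8348 genes tested, 3951 were above 0 on the standard diet and 3946 on the curcumin diet. Between the diets the median was -0.084 with TNBS and 0.063 with the control enema.

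Several of these carriers are known to be under the amino acid response, in which the factor Atf4 binds the DNA motif TGATGNAA, so a list of 21 other genes of that response was read beside them. Of its 20 tested genes, 0 passed in any comparison. For TNBS on the standard diet 18 of 20 had a difference above 0 (median 0.29), and on the curcumin diet 6 of 20 (median -0.13), beside medians of -0.016 and -0.012 over all genes. Between the diets 6 of 20 were above 0 with TNBS (median -0.23) and 18 of 20 with the control enema (median 0.26). Over all 8348 genes, 3951 were above 0 for TNBS on the standard diet and 3946 on the curcumin diet. Between the diets 4206 were above 0 with TNBS and 4231 with the control enema. The listed genes were read on the same arrays, and whether Atf4 has a part in these counts was not tested. Asns, which makes asparagine, and Psat1, of serine synthesis, differed by 0.81 ± 0.22 and 0.88 ± 0.23 for TNBS on the standard diet. Their interactions were -1.09 ± 0.31 and -1.18 ± 0.32. Pancreas marker sums were high on all 3 standard-diet TNBS arrays. They were also high on standard-diet control arrays 2 and 3, where Asns read 942 and 779 and Psat1 248 and 253. On curcumin-diet control array 3, the one of its group with a high pancreas sum, Asns read 1361 and Psat1 444. Arrays 1 and 2 of that group read 823 and 863 for Asns. The part of pancreas in these values was not tested. Among proteins that escort or power carriers (11 tested genes, such as basigin and sodium pump subunits), 0 passed, and medians ran from -0.13 between the diets with TNBS to 0.14 for TNBS on the standard diet.

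The promoter windows of 4 genes are shown, from 250 bases before to 50 bases after the start of transcription, read 5′ to 3′ on the strand of the gene (RefSeq, GRCm38.p6). Of the 163 genes, 130 had a window in that table. Capitals mark TGATGNAA, the E box CACGTG or the antioxidant response core TGACNNNGC on either strand, and only Slc1a4, a carrier of alanine, serine and cysteine, held one, TGATGNAA. Slc3a2 was taken for its opposite order under the 2 diets, Slc1a4 for its motif, and Slc3a1 and Slc25a22 because their arrays separated by diet. The match in Slc1a4 thus follows from how it was chosen.
Slc3a2: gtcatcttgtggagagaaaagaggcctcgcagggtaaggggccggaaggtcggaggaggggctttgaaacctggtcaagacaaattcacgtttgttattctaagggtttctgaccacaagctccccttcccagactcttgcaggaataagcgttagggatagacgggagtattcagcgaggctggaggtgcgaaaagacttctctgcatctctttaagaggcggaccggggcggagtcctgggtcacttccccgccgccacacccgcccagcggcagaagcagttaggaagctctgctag
Slc1a4: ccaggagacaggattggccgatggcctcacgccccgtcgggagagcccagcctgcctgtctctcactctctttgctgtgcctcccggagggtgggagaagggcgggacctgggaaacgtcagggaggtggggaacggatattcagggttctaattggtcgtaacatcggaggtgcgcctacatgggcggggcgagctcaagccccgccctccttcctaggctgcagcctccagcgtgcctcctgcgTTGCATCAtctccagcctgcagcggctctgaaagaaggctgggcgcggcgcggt
Slc3a1: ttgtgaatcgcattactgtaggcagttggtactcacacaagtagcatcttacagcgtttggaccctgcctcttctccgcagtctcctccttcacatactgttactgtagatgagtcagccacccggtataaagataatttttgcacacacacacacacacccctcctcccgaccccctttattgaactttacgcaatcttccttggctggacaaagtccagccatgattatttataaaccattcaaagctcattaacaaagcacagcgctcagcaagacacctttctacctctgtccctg
Slc25a22: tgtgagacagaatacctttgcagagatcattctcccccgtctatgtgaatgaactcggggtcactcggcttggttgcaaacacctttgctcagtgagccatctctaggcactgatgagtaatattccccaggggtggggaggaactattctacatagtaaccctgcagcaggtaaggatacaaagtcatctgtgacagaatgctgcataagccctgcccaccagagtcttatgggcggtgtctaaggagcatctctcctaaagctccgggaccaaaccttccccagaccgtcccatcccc
The windows lie at chr19:8713848-8714147 (minus strand) for Slc3a2, chr11:20332664-20332963 (minus strand) for Slc1a4, chr17:85028097-85028396 (plus strand) for Slc3a1 and chr7:141437825-141438124 (minus strand) for Slc25a22, where it is 1 of 3 listed starts. TGATGNAA was in 3.97% of all 32851 windows and in 4 of 177 windows of member genes (2.26%). The E box was in 7.15% of all windows and 12.43% of the members', and TGACNNNGC in 12.39% and 18.08%. A match is a description of these letters, and a window without one says nothing of the factor.

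**Figure D3:**
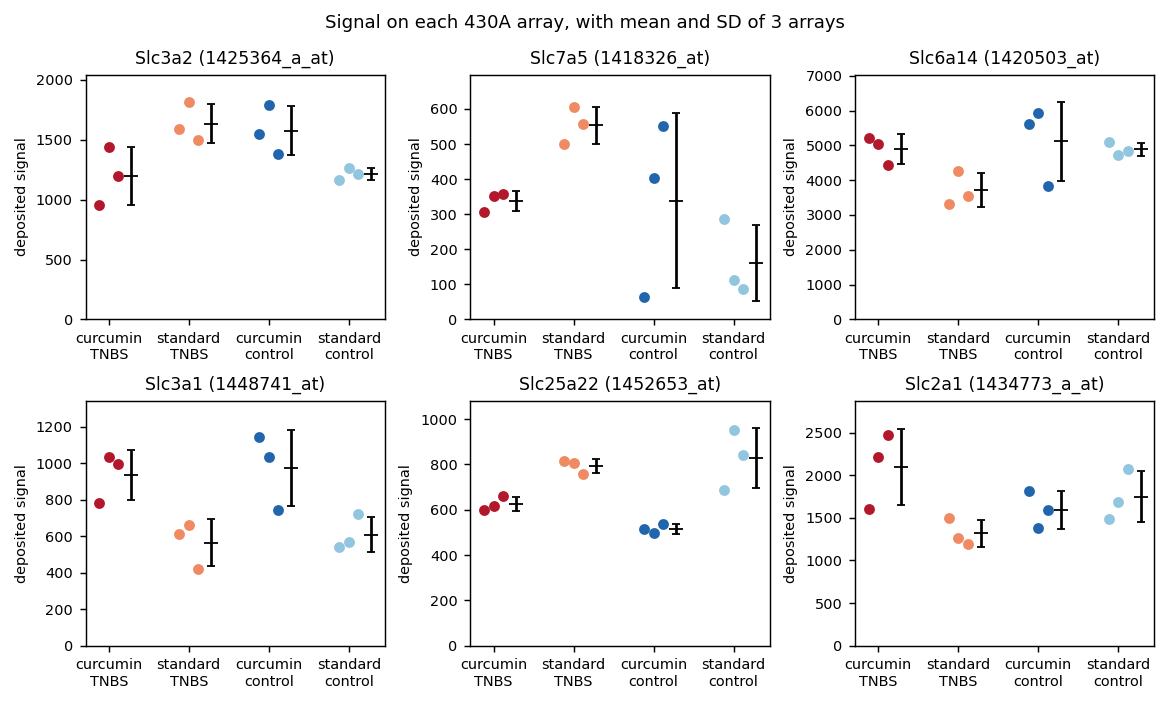
Deposited signal of 6 genes on each 430A array (points, 3 per group), with the mean and SD beside them: curcumin-diet TNBS, standard-diet TNBS, curcumin-diet control and standard-diet control. Slc3a1 lies higher and Slc25a22 lower on all 6 curcumin arrays than on all 6 standard arrays, and the 3 arrays of Slc7a5 in curcumin-diet control colons spread from 64.2 to 550.3.

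Sugar carriers (15 genes). Slc2a1, the basal glucose carrier, gave the lowest adjusted p of the members. Its leading probe set read 1602, 2215 and 2472 in curcumin-diet TNBS colons, against 1499, 1268 and 1194 in standard-diet TNBS colons, a difference of 0.64 ± 0.18 (adjusted p = 0.22 in limma, 0.075 in the array set fit). A second probe set read 1994, 1923 and 1184 in curcumin-diet TNBS colons, against 1028, 961 and 959 in standard-diet TNBS colons, a difference of 0.74 ± 0.18, and the other one differed by 0.32 ± 0.18, so all 3 lay on the same side of 0. With the control enema the leading probe set differed by -0.13 ± 0.18 between the diets. Slc37a2, a sugar phosphate exchanger of the endoplasmic reticulum, read 464, 593 and 584 in standard-diet TNBS colons, against 1820.3, 1375 and 647 in standard-diet control colons (-1.09 ± 0.58), and 1053, 2235 and 278 in curcumin-diet control colons, so its control arrays spread widely. Slc5a2, a sodium-driven glucose carrier best known from kidney, had an interaction of 1.02 ± 1.17 by its leading probe set, -0.061 by its other one and -0.34 in the array set fit. The sodium-driven glucose carrier Slc5a1 differed by -0.13 ± 0.12 for TNBS on the standard diet. The insulin-regulated Slc2a4 differed by -0.31 ± 0.14 and Slc2a3, the glucose carrier typical of neurons, by 0.039 ± 0.16. For Slc2a3 the curcumin-diet control arrays lay below the standard-diet control arrays, by -0.22 ± 0.16. Slc37a1 and Slc50a1 kept to differences between -0.24 and 0.15 in the 4 comparisons. Adipocyte marker sums were lowest on 1 standard-diet TNBS array (6610, against 12121 to 20049 on the other 11), and their part in the Slc2a4 values was not tested.

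Carriers of short-chain fatty acids and organic ions (12 tested genes). Slc5a8 and Slc16a1, which take up butyrate and other monocarboxylates, both had more signal in curcumin-diet than in standard-diet TNBS colons. Slc5a8 read 1232, 1334 and 1065 in curcumin-diet TNBS colons, against 921, 954 and 805 in standard-diet TNBS colons. With the control enema it read 1236, 863 and 891 on curcumin, against 1089.6, 960.1 and 1179 on the standard diet. The diet difference was 0.43 ± 0.16 with TNBS (95% interval 0.087 to 0.77) and -0.12 ± 0.16 without. Slc16a1 read 2833, 2833 and 2489 in curcumin-diet TNBS colons, against 2171, 2457 and 2231 in standard-diet TNBS colons, a difference of 0.25 ± 0.14, and on the curcumin diet TNBS colons lay above control colons by 0.23 ± 0.14. Slc22a5, the carnitine carrier, read 1504, 1349 and 1309.5 in curcumin-diet TNBS colons, against 970.2, 1223 and 996 in standard-diet TNBS colons, a difference of 0.38 ± 0.13. Its other probe set differed by -0.058 ± 0.13. Slc22a23, an organic ion carrier by sequence, differed by 0.40 ± 0.16 between the diets with TNBS and by -0.44 ± 0.16 for TNBS on the standard diet, where it had the lowest adjusted p of the members in the array set fit, 0.097. The dicarboxylate carrier Slc13a2 differed by 0.23 ± 0.12 and the lactate exporter Slc16a3 by -0.34 ± 0.27. For TNBS averaged over diets Slc16a3 differed by 0.28 ± 0.19. Between the diets with TNBS 8 of 12 genes were above 0, as were 4206 of all 8348 genes. The family median of 0.20 was the highest of any family, beside 0.0025 over all genes. With the pancreas marker level as a term the family median was 0.056. Of the colonocyte markers, 8 of 11 were also above 0 between the diets with TNBS (median 0.14), with sums of 68089, 65166 and 60237 in curcumin-diet TNBS colons, against 49647, 62565 and 55724 in standard-diet TNBS colons, and their part in the carrier values was not tested. For TNBS averaged over diets 10 of the 11 were below 0 (median -0.16).

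Choline, fatty acid and bile acid carriers (10 genes). Slc44a1, a choline carrier, varied little between replicates and read 3256, 3583 and 3389 in standard-diet TNBS colons, against 4224, 4571 and 4104 in standard-diet control colons. The difference of -0.33 ± 0.092 (95% interval -0.53 to -0.13) had the lowest adjusted p of the members for that comparison, 0.21. Curcumin-diet TNBS colons read 4068, 3967 and 4004, above the standard-diet TNBS colons by 0.24 ± 0.092, and curcumin-diet control colons 4009.5, 4058 and 3724, below standard-diet control colons by -0.13 ± 0.092. Its second probe set differed by -0.077 ± 0.20 for TNBS on the standard diet. Slc44a4, known in human colon as a carrier of thiamine pyrophosphate, differed by -0.21 ± 0.16. Slc51a, a subunit of the basolateral bile acid exporter, differed by -0.37 ± 0.39, with arrays from 705 to 2218 over the 12. On the curcumin diet TNBS colons lay below control colons for Slc27a4, which activates and takes up fatty acids (-0.24 ± 0.16), and for Slc10a6, a carrier of sulphated steroids (-0.28 ± 0.28). Slc10a6 had an interaction of -0.84 ± 0.40.

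Ion exchangers (16 tested genes). For Slc4a2, Slc12a7 and Slc12a8 the arrays of TNBS and control colons overlapped on either diet. The chloride and bicarbonate exchanger Slc4a2 differed by -0.043 ± 0.13, the potassium and chloride cotransporter Slc12a7 by -0.23 ± 0.19 and Slc12a8 by 0.15 ± 0.24. Slc24a3, a sodium and calcium exchanger that also moves potassium, read 609, 643 and 571 in standard-diet TNBS colons, against 1007, 846 and 797 in standard-diet control colons, a difference of -0.52 ± 0.24. The apical anion exchanger Slc26a6 differed by -0.015 ± 0.26. Averaged over diets, TNBS colons differed by 0.43 ± 0.41 for the phosphate carrier Slc20a2 and by 0.31 ± 0.30 for the sodium and proton exchanger Slc9a8. The family medians ran from -0.037 between the diets with the control enema to 0.014 with TNBS.

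Metal carriers (22 genes). Slc11a1, the divalent metal carrier of phagocyte vesicles, read 627, 402 and 504 in standard-diet TNBS colons, against 391, 389 and 317 in standard-diet control colons, a difference of 0.45 ± 0.21. Curcumin-diet TNBS colons read 340.2, 314 and 459, and their arrays overlapped with those of standard-diet TNBS colons. The neutrophil and macrophage marker sums were also highest on the 3 standard-diet TNBS arrays, and their part in the Slc11a1 values was not tested. Slc39a13, a zinc carrier of the early secretory pathway, read 242, 400.2 and 308 in curcumin-diet TNBS colons and 175, 239 and 172 in curcumin-diet control colons, a difference of 0.64 ± 0.22. In standard-diet colons it read 254, 229 and 264 with TNBS, against 258, 387 and 294 with the control enema, and the interaction was 0.94 ± 0.31 (adjusted p = 0.34 in limma). The zinc importers Slc39a14 and Slc39a8, both known to respond to inflammation, differed by 0.032 ± 0.16 and 0.013 ± 0.18 for TNBS on the standard diet. A second probe set of Slc39a14 read 478, 418 and 471 in standard-diet TNBS colons, wholly above 363, 349 and 388 in standard-diet control colons, a difference of 0.30 ± 0.17 (limma adjusted p = 0.65). For the leading probe set of Slc39a14 the averaged diet difference was -0.31 ± 0.11, with 589.7, 520.2 and 559.7 in curcumin-diet TNBS colons, against 683, 779 and 669 in standard-diet TNBS colons. Slc39a9 differed by -0.31 ± 0.14 on the curcumin diet, while Slc39a11 and Slc30a4 differed by -0.15 ± 0.15 and -0.13 ± 0.16. The magnesium carriers Slc41a2 and Slc41a3 had the largest positive interactions, 1.05 ± 0.57 and 1.40 ± 0.88. In the array set fit these were 0.50 and 0.40.

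Mitochondrial carriers (28 genes, all those of the Slc25 family among the members). Slc25a22, which brings glutamate into mitochondria, had lower signal on curcumin with either enema. It read 599.9, 617 and 662 in curcumin-diet TNBS colons, against 815, 806 and 756 in standard-diet TNBS colons. With the control enema it read 514, 497 and 539 on curcumin, against 689, 951 and 844 on the standard diet. All 6 curcumin arrays lay below all 6 standard arrays, as they did for 0.0884% of all probe sets. The averaged diet difference was -0.49 ± 0.093 (95% interval -0.70 to -0.29), -0.39 within array set 1 and -0.56 within set 2. Its adjusted p was 0.35 in limma and 0.14 in the array set fit, and with the pancreas marker level as a term the difference was -0.42. On the curcumin diet TNBS colons lay above control colons by 0.27 ± 0.13.

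Other mitochondrial members separated the TNBS colons of the 2 diets. Slc25a30 read 347, 395 and 425 in curcumin-diet TNBS colons, against 506, 519 and 574 in standard-diet TNBS colons, a difference of -0.44 ± 0.13. Slc25a46, an outer-membrane protein of mitochondrial fission and fusion, read 1249, 1307 and 1168 in curcumin-diet TNBS colons, against 744, 1022 and 894 in standard-diet TNBS colons, a difference of 0.49 ± 0.13, but its second probe set differed by 0.028 ± 0.11. Slc25a36, a pyrimidine nucleotide carrier, differed by -0.40 ± 0.19 for TNBS on the standard diet. The phosphate carrier Slc25a3 differed by -0.029 ± 0.11, the ADP and ATP exchangers Slc25a4 and Slc25a5 by 0.060 ± 0.12 and 0.051 ± 0.13, and the glutathione carrier Slc25a39 by 0.049 ± 0.18. For Slc25a3 the 95% interval was -0.26 to 0.20. The value of Slc25a5 is that of 1 of its 8 probe sets, and these disagreed. One of them had the lowest adjusted p of the members for the interaction, 0.25 in limma. With array weights the interaction was -0.70 for 1430542_a_at, -0.84 for 1438545_at and 2.20 for 1438922_x_at. Of these, 1430542_a_at is wholly higher in array set 1 and 1438922_x_at wholly higher in array set 2. Slc25a37, the iron importer of red cell precursors, differed by -0.23 ± 0.14 on the curcumin diet, and Slc25a33, another pyrimidine nucleotide carrier, by 0.29 ± 0.26 between the diets with the control enema. The family median stayed between -0.030 and 0.064 in the 4 comparisons.

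Nucleotide sugar carriers (16 genes). Slc35b1, which brings ATP into the endoplasmic reticulum, read 1672, 1693 and 1882 in curcumin-diet control colons, against 1346, 1379.7 and 1134 in standard-diet control colons, a difference of 0.44 ± 0.13. Standard-diet TNBS colons read 1561, 1573 and 1829.6, above standard-diet control colons by 0.36 ± 0.13. Slc35b2, the carrier of the sulphate donor for mucin and proteoglycan sulphation, differed by 0.43 ± 0.18 for TNBS on the standard diet, and Slc35f5 by -0.49 ± 0.15. Slc35c1, the GDP-fucose carrier, differed by 0.24 ± 0.11 between the diets with the control enema and by -0.24 ± 0.11 for TNBS on the curcumin diet. The CMP-sialic acid carrier Slc35a1 and the UDP-N-acetylglucosamine carrier Slc35a3 differed by -0.12 ± 0.14 and 0.12 ± 0.13 for TNBS on the standard diet. For Slc35d1 the averaged TNBS and diet differences were -0.24 ± 0.19 and 0.27 ± 0.19. Goblet cell markers summed to between 64223 and 83710 over the 12 arrays.

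Nucleoside, vitamin and haem carriers (12 genes). Slc43a3, a purine nucleobase carrier, read 414, 279 and 299 in standard-diet TNBS colons, against 221, 163 and 221 in standard-diet control colons, a difference of 0.66 ± 0.22. Curcumin-diet TNBS colons read 207, 218 and 244, wholly below the standard-diet TNBS colons (-0.52 ± 0.22), and the interaction was -0.80 ± 0.31. Slc5a6, the sodium-driven carrier of biotin and pantothenate, differed by 0.50 ± 0.27 between the diets with TNBS and had an interaction of 0.90 ± 0.38 (adjusted p = 0.45 in limma). The vitamin C carriers Slc23a1 and Slc23a2 differed by 0.17 ± 0.31 and -0.38 ± 0.12 for TNBS on the standard diet. The riboflavin carrier Slc52a3 and the haem carrier Slc48a1 differed by 0.044 ± 0.19 and 0.027 ± 0.16. Among neurotransmitter and vesicular carriers (5 genes) the vesicular nucleotide carrier Slc17a9 differed by 0.12 ± 0.40, the vesicular monoamine carrier Slc18a1 by -0.34 ± 0.27 and the dopamine carrier Slc6a3 by 0.047 ± 0.33. Of the proteins that are not transporters, the scaffold Slc9a3r1 had an averaged diet difference of 0.27 ± 0.22 and Slc4a1ap one of -0.38 ± 0.21. For Slc4a1ap it was 0.013 within array set 1 and -0.70 within set 2.

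Probe sets of 1 gene often differed in sign. Of the 163 genes, 53 had several member probe sets, and of the 52 with several tested, 28 had differences of a single sign for TNBS on the standard diet, 22 on the curcumin diet, 26 between the diets with TNBS and 28 with the control enema. A difference near 0 can take either sign and no reference count was made, so these counts are a description only. In 7 genes the probe sets differed by over 1 log2 unit in their change between the array sets. In Slc1a4 the probe set 1456003_a_at read 622 to 759 on the 6 arrays of set 2, against 120.2 to 223 on the 6 of set 1, while 1423550_at read 492 to 641 in set 2 against 387 to 514 in set 1 and 1423549_at 38.5 to 206 in set 2 against 199.9 to 424 in set 1. In Slc6a14, 1420504_at read 1893 to 2822 in set 2 against 734 to 1328 in set 1, and the leading 1420503_at 3317 to 5606 in set 2 against 3556 to 5920.4 in set 1. In Slc44a2, 1438860_a_at read 259.8 to 504 in set 2 against 69.1 to 164 in set 1, and the leading 1438559_x_at 429.8 to 551 in set 2 against 401 to 657 in set 1. Of the 8 probe sets of Slc25a5, 1438360_x_at and 1438922_x_at were the ones wholly higher in set 2, at 2422 to 2857 in set 2 against 1000.2 to 1626 in set 1 and 1362 to 2357 in set 2 against 698 to 1313 in set 1. Its 1430542_a_at was wholly lower in set 2, at 9289 to 11046 against 12583 to 15163 in set 1. The array sets did not overlap for 14.2% of member probe sets and 12.8% of all probe sets, and since the sets were found from these signals this is a description only. The median SD within groups was 0.25 log2 units for members and 0.24 for all probe sets.

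**Figure D4:**
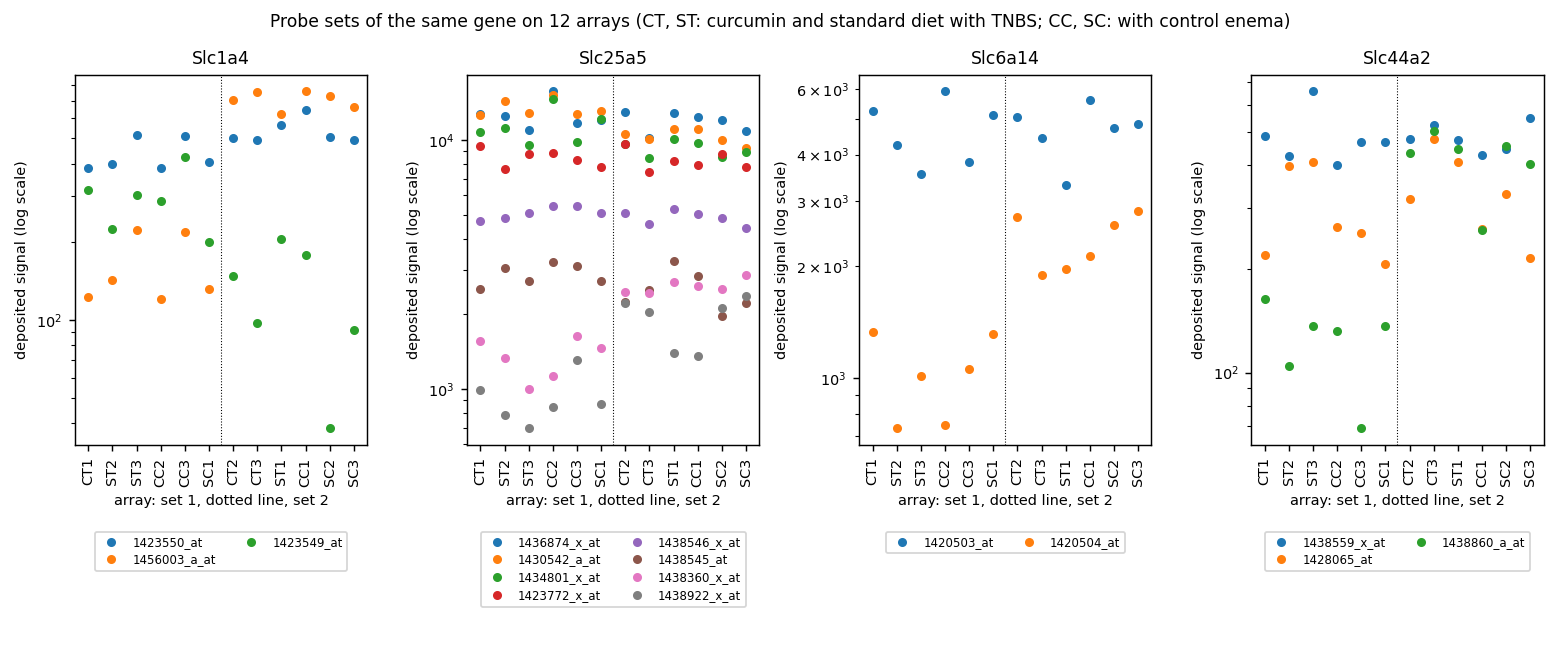
Deposited signal (log axis) of every member probe set of Slc1a4, Slc25a5, Slc6a14 and Slc44a2 on the 12 arrays, with array set 1 left of the dotted line and set 2 right of it. CT and ST are curcumin-diet and standard-diet TNBS colons, CC and SC the control colons. Slc1a4 1456003_a_at and Slc6a14 1420504_at jump between the sets, while Slc1a4 1423550_at and Slc6a14 1420503_at do not separate them.

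The companion 430B array, hybridised with the same RNA samples, held 59 further probe sets of 44 of these genes, of which 41 were tested. Of these, 0 passed the limma threshold in any of the 7 comparisons, where 0.407% of all 13506 tested 430B probe sets were called for TNBS on the curcumin diet and 1.58% for the diets with TNBS. The 430B background was 0.0074% for TNBS on the standard diet, 0.0074% for the diets with the control enema, 0.0296% for the averaged TNBS effect, 0.0% for the averaged diet effect and 0.0666% for the interaction. Without adjustment, 15 of the 41 for TNBS on the curcumin diet (36.6%, against 24.0% of all), 15 of the 41 for the diets with TNBS (36.6%, against 23.6% of all) and 14 of the 41 for the interaction (34.1%, against 17.1% of all) had p under 0.05. In the other comparisons the counts were 1 for TNBS on the standard diet (2.44%, against 5.21%), 2 for the diets with the control enema (4.88%, against 4.16%), 6 for the averaged TNBS effect (14.6%, against 11.5%) and 6 for the averaged diet effect (14.6%, against 11.2%). The 2 curcumin-diet TNBS arrays of samples 2 and 3 stand apart on 430B. The shares above for comparisons with that group cannot be told apart from what sets these 2 arrays apart. Without them the group holds 1 array, so no counts are given for those comparisons without them. In the comparisons that do not use that group, the counts of members called without them were 0 as well. The shares with an unadjusted p under 0.05 were then 4.88% of members against 6.6% of all for TNBS on the standard diet. They were 4.88% of members against 5.23% of all for the diets with the control enema. A 430B probe set of Slc39a14 differed by -1.72 ± 0.42 between the diets with TNBS. Without these 2 arrays, and so with 1 curcumin-diet TNBS array, it differed by -0.46.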

How the data were processed

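Total RNA of whole mouse colon was labelled with biotin and hybridised to Affymetrix 430A and 430B arrays, 12 of each, in 4 groups of 3. The deposited values are intensity signals on a linear scale, for which the submitters' processing notes name GCOS (version not given in the sources used here). They were used as deposited, and no depth applies: the number of arrays limits the precision. Probe sets were named from the platform annotation. Signals were converted here to log2 after adding 16, since the deposited table holds no log2 values. Probe sets with a mean above the 40th percentile were fitted with group means over all 12 arrays of a type in limma 3.58.1 (R 4.3.3, lmFit and eBayes with trend, 8 residual degrees of freedom). P-values are two-sided and adjusted by the Benjamini-Hochberg method over all probe sets fitted together, with 0.05 as the limit for a call. The scripts were tested on simulated data.

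Members, substrate families, gene lists and tests were chosen with earlier results of these data known. Families were set by substrate, mostly by the Slc number, but some numbers were split gene by gene. Among these, Slc5 genes are in several families, and Slc6a2 and Slc6a3 stand apart from the Slc6 amino acid carriers. Slc43a3 and Slc5a5 were moved to the family of their known substrate after their values were seen. For each comparison the genes named are the 5 highest and 5 lowest differences of members whose arrays do not overlap (for the interaction and the averages, overlap was ignored), the 3 members of highest mean signal per family, and a fixed list of carriers known in colon or inflammation. Other genes with values (among them Slc22a23, Slc7a6, Slc7a7, Slc7a9, Slc7a10, Slc1a4, Asns and Psat1) were chosen after their values were seen. Alternatives were the pseudocount, the filter, quantile normalisation, array weights, the array set as a term, leaving out each array, and fitting only the groups compared. Terms for the pancreas marker level, and the array set term with an array left out, were added after seeing the data. The array set term codes the 2 sets found by principal components. Of the 11 lists read, those for smooth muscle (6 genes tested) and neuron and glia (4 tested) had 0 genes called in any comparison. The red blood cell list had 0 genes tested, so it could give no call. In the fit with that term the neutrophil list had 3 of 4 tested genes called higher for TNBS on the standard diet and 1 called lower on curcumin with TNBS, the macrophage list 1 higher and the colonocyte list 1 lower for TNBS on the standard diet. Without it no list had a gene called, and goblet cell, adipocyte and pancreas lists had none with it.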

Additional observations from a re-analysis of the deposited data

How the results depend on the processing

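The number of solute carrier probe sets called was 0 in all 7 comparisons under another pseudocount, filter or normalisation, with the array set or the pancreas marker level as a term, and when any single array was left out of the fit with group means. With array weights it was 1 for TNBS on the standard diet (Slc7a5, higher, 0.418% of the members, against 0.862% of all probe sets called higher). For the diets with TNBS it was 25 (6.69% of the members higher and 3.77% lower, against 6.56% and 5.41% of all). For the interaction it was 16 (13 higher and 3 lower, 5.44% and 1.26% of the members, against 2.86% and 2.15% of all). The 25 include Slc2a1, Slc3a1, Slc5a8 and Slc6a14, all higher on curcumin with TNBS, and Slc25a30, Slc38a3 and Slc39a14, all lower. Probe sets of Slc25a5 were called in both directions. Among the higher calls are probe sets whose array sets do not overlap, such as Slc6a14 1420504_at, Slc44a2 1438860_a_at and that of Slc41a3. The cause of these calls was not tested. In fits that add the array set and leave out 1 array, the count ran from 0 to 3 for TNBS on the standard diet and for the diets with TNBS, 0 to 1 for TNBS averaged over diets, 0 to 2 for diet averaged over enemas, and was 0 in the other 3 comparisons. The arrays whose absence gave calls were curcumin-diet control 1 (Slc7a5) and 3 (Slc22a23, Slc37a2, Slc6a14, Slc2a1, Slc25a22 and Slc3a1), curcumin-diet TNBS 3 (Slc2a1) and standard-diet TNBS 2 (Slc25a46 and Slc3a1). Of 1215 values of single genes under alternatives, which leave out the fits that add the array set and drop an array, 1199 kept direction and side of the threshold, 12 gained a call, all with array weights, 0 lost one, and 4 changed sign. These were Slc38a10 for TNBS on the curcumin diet by another probe set (-0.15), and in the interaction Slc5a2 (1.02 as reported) with the array set as a term (-0.34) or by another probe set (-0.061) and Slc6a6 by another probe set (0.33). Medians over the member genes moved by less than the spread between replicates (0.11 on the log2 scale) in 165 of 165 values. That spread is wider than the medians themselves, so this says nothing of their sign. With 1 array left out they ran from -0.023 to 0.010 for TNBS on the standard diet and -0.089 to 0.036 on the curcumin diet. Between the diets they ran from -0.031 to 0.061 with TNBS and -0.013 to 0.071 with the control enema. No paired analysis was possible because the replicate numbers of the labels do not pair samples across groups.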
